A study of Mus musculus with 6 samples.

Results

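Muscle stem cells (MuSCs) of control mice were described as they came from the cell sorter, without injury or culture, by the genes that they expressed. The members were chosen by level: 14144 of the 25166 genes of the table, 56.2%, had a mean signal of at least 5 over the 3 control libraries. Signal here means reads divided by the scaling factor of a library, rounded to whole numbers. The 3 control samples carry the genotype Wild type and the strain C57BL/6 in the labels, whereas a supplementary legend describes control mice as Sirt6 fl/fl without the Pax7ICN Cre driver. That legend, which also covers the plots of these libraries, gives male mice of 12 weeks. The series also holds 3 Sirt6mKO libraries, in which Sirt6 is deleted in Pax7-expressing cells, and they were not used here. Cells came from limb and trunk muscles digested with dispase and collagenase. Per the methods, cells positive for Sca1, CD45 or CD31 were removed with beads, and cells positive for Integrin-a7 and CD34 were sorted. The methods also name sorting by a fluorescent reporter of Pax7-expressing cells, and do not say which route served these libraries. RNA of 100 to 200 cells, 1 to 5 ng, was depleted of ribosomal RNA per the labels, so the libraries also hold RNA without a poly(A) tail. The labels do not say whether the 3 samples came from separate animals, and the spread between them may in part be technical.

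MuSCs, also known as satellite cells, lie between the basal lamina and the plasma membrane of a myofiber. In adult resting muscle they are quiescent, that is, outside the cell cycle but able to return to it after injury, when they proliferate, differentiate and fuse. The transcription factor PAX7 marks them, and Notch signaling, contact with laminin and collagen of the niche, and the cell adhesion molecule M-cadherin are known to accompany the resting state. Taking the cells out of the muscle by enzymes ends that state, and freshly isolated cells are already on the way out of deep quiescence.

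The 3 libraries were close to each other. They summed to a signal of 2337828, 2340764 and 2272307, which stood for 1901872, 3208772 and 1267027 recovered reads in control replicates 1, 2 and 3. Replicate 3 was thus the shallowest: 1 read there gave a signal of 1.79, against 1.23 in replicate 1 and 0.729 in replicate 2. A value of 0 allows up to 3 reads, which is a signal of 3.69, 2.19 and 5.38 in replicates 1, 2 and 3 and covers counting error only. Spearman's rho between libraries across the 14144 genes was 0.961 to 0.971. The points of this correlation are genes, not independent replicates, so no p was attached. Of the members, 14091 had reads in all 3 libraries, and 12848 reached a signal of 5 in each of them.

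The threshold itself fell in a range where single reads decided. At a mean of exactly 5 stood 210 genes, among them the lincRNA 1300014J16Rik with 5, 1 and 9 and the protein-coding gene 1700003F12Rik with 2, 4 and 9. Directly under it, at a mean of 4.67, stood 204 genes, among them the lincRNAs 2310026L22Rik with 5, 0 and 9 and 2410080I02Rik with 9, 3 and 2. The genes on both sides of the threshold overlapped in every library. Members with a mean from 5 to 10 numbered 2028 and held 0.609% of all signal.

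Reads of control MuSCs were spread over many genes. The 100 most abundant genes of each library held 16.7% ± 0.542 (SD, n = 3) of the member signal, the 10 most abundant 4.76 to 5.34%. 50% of the signal was reached with 1022, 1061 and 1032 genes, and 90% with 5811, 5740 and 5845. The 329 members with a mean of at least 1000 stood at one end, and 6784 members with a mean under 50 at the other. The median member had a mean signal of 54, and the median per kilobase of exon was 15.02.

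**Figure D1:**
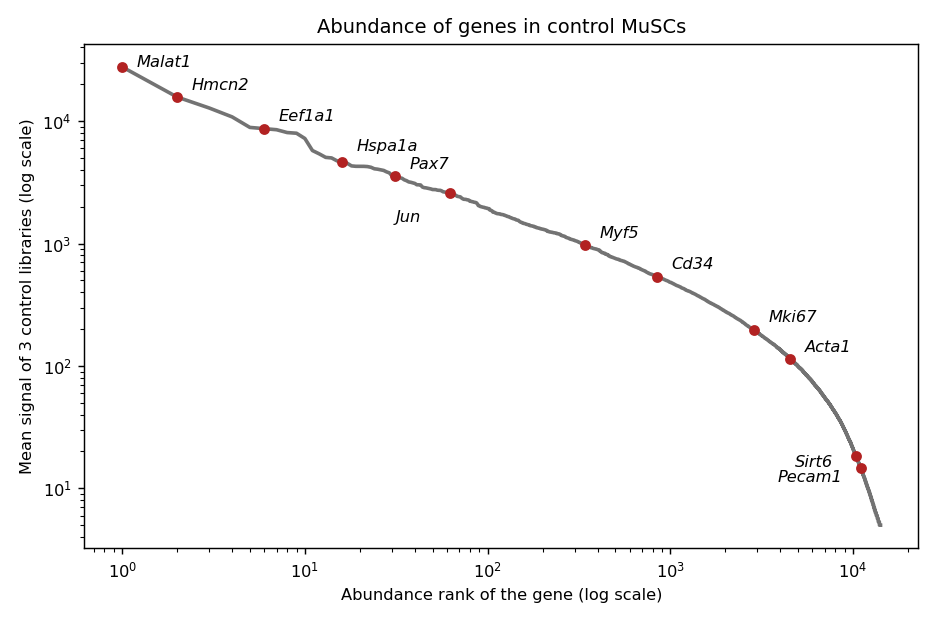
Mean signal of the 14144 genes in 3 control libraries (y axis, log scale) against their abundance rank (x axis, log scale), as a grey line, with 12 genes marked in red. Malat1 led with a mean of 27715, Pax7 stood at rank 31 with 3555, and Mki67 with 198 and Acta1 with 114 stood at ranks 2861 and 4544.

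Malat1, a nuclear long noncoding RNA, had the highest signal, that is, the most reads, of the genes. Its signal was 31426, 22854 and 28866 in control replicates 1, 2 and 3, which made up 1.35, 0.982 and 1.28% of the member signal. The second was Hmcn2, hemicentin 2, a very large extracellular matrix protein, with 18938, 15633 and 12595. Every library gave Malat1 a higher signal than Hmcn2, and the lowest Hmcn2 value, in replicate 3, was still higher than the mean of every gene from rank 4 on.

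The next ranks held genes of transcription, cytoskeleton, translation and imprinting. They were Zbtb20, a zinc finger repressor (mean 12783), Ahnak, a giant scaffold protein (10819), and the elongation factors Eef2 (8880) and Eef1a1 (8664). The paternally expressed Peg3 (8503), Dag1, the dystroglycan gene (8062), and Gnas, the imprinted gene of the stimulatory G protein subunit (7959), followed. Col3a1, a fibrillar collagen (7209), and Igfbp5, a binding protein of insulin-like growth factors (5748), were the last of the first 11.

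By signal, ranks 12 to 30 held Nedd4, a ubiquitin ligase, the splicing proteins Son and Srrm2, the cytolinker Dst, and the spectrin Sptbn1. The same ranks held the chaperones Hsp90ab1, Hspa1a, Hspa8 and Hspa1b, and the basement membrane genes Col4a1, Lamc1 and Hspg2. The noncoding RNAs Rian and Rn7sk, the antioxidant enzyme gene Gpx3, the endocytic receptor Lrp1, the Notch-related ubiquitin ligase Dtx4, Actb and the ubiquitin ligase Huwe1 completed them. The means of these 19 genes ran from 3566 for Huwe1 to 5394 for Nedd4. Of the 30 most abundant genes, 15 overlap another gene of the table, 9 of them on the same strand. Reads that fell on more than 1 gene were excluded per the methods, so that these values can be too low.

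Long transcripts give more reads than short ones, and the 100 most abundant genes had a median exon length of 9401 bases against 4129 over the members. Divided by exon length, Rn7sk, the small nuclear RNA that holds the elongation factor P-TEFb inactive, stood first with a mean of 12227 per kilobase. Malat1 had 3969 per kilobase, Eef1a1 3475, Eef2 2671 and Gpx3 2345. Rplp1 (1884), Rpl26 (1750), Hsp90ab1 (1668), Rplp0 (1587) and Rpl4 (1576) completed the first 10 per kilobase. Genes for ribosomal proteins were 7 of the 100 most abundant genes by signal and 27 of the 100 most abundant per kilobase. The 100 highest genes on either scale had 45 in common.

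The 6 genes that mark MuSCs were measured at high levels in each library. Pax7 had a signal of 4066, 3449 and 3150 in control replicates 1, 2 and 3. Notch3, a Notch receptor, had 3289, 2967 and 2112. Replicate 1 was the highest and replicate 3 the lowest for both genes. Fgfr4, a receptor of fibroblast growth factors, had 2392, 2535 and 1970, and Vcam1, a cell adhesion molecule used to sort MuSCs, had 2177, 1692 and 1923. Cdh15, which encodes M-cadherin, had 1561, 1533 and 1407, and Myf5, a myogenic factor already transcribed at rest, had 897, 1074 and 921. All 6 lay within 1.56-fold between their highest and lowest library. Per kilobase of exon, Fgfr4 (649), Pax7 (607), Myf5 (463) and Cdh15 (462) stood at ranks 52, 56, 82 and 83 of all genes, before Notch3 (345) and Vcam1 (218). By signal, Pax7 ranked 31, Notch3 49 and Myf5 342.

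The antigens of the Integrin-a7 and CD34 gate went the way of that gate. Itga7, which encodes Integrin-a7, had a signal of 954, 925 and 909, and Cd34 had 439, 605 and 563. Of the antigens used for removal, Pecam1, which encodes CD31, had 11, 4 and 29. Ly6a, which encodes Sca1, had 0, 0 and 2. Pecam1 was highest in replicate 3, and Ly6a stayed under the limit of 3 reads in each library. Ptprc, which encodes CD45, was not analysed here.

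**Figure D2:**
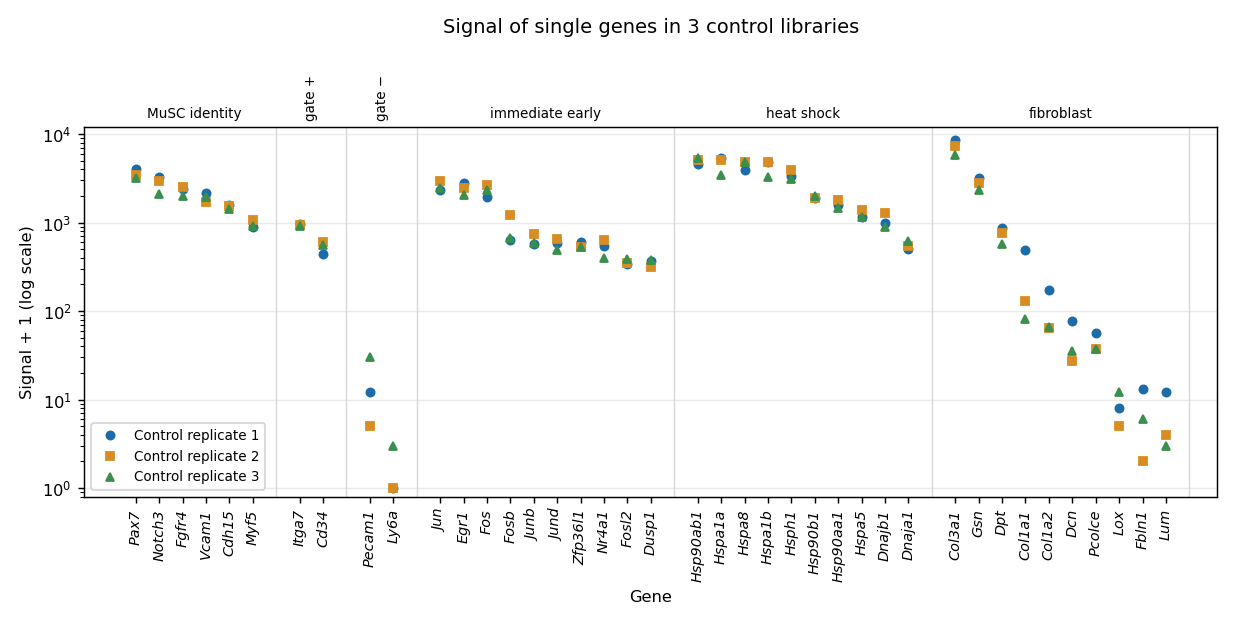
Signal + 1 (y axis, log scale) of single genes (x axis) in the 3 control libraries, each library with its own symbol, grouped by gene list with at most the 10 most abundant genes of each. MuSC identity genes lie between 897 and 4066, Pecam1 and Ly6a between 0 and 29, and of the fibroblast list Col3a1, Gsn and Dpt lie above 570 and Lum under 12.

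Of the genes linked with quiescence, 27 of 27 were members, against 75.9% of all protein-coding genes, and 9 of them had a mean of at least 1000. Counts of members in the lists below are to be read against the same share. The median mean signal of the quiescence list was 792, or 148 per kilobase, against 75.5 and 17.2 over the protein-coding members. By signal the list was led by Fgfr1 with 2597, 2681 and 2590, Heyl, a transcription factor downstream of Notch, with 2023, 1642 and 1613, and Col5a1, a collagen of the niche, with 2046, 1923 and 1291. Itgb1, the integrin beta1 subunit, followed with 1661, 1888 and 1563. Other members were Spry1, an inhibitor of growth factor signaling (1241, 1483 and 1047), and Calcr, the calcitonin receptor that is known to hold MuSCs at rest (512, 731 and 713). Fgfr1 was nearly level between libraries, while Col5a1 was lowest in replicate 3. Replicate 3 was the lowest library for 17 of the 27 genes and for 41.3% of all genes with a mean of at least 50.

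Genes of the Notch pathway were members in 19 of 21 cases, with a median of 66.2 per kilobase over these members. Among the receptors, Notch2 had a signal of 2332, 2711 and 2194 and Notch1 1309, 1185 and 1104. Per kilobase, Notch3 had 345, Notch2 224 and Notch1 84.3. Among the target genes, Heyl, Hey1 and Hes1 were the highest, with 344, 140 and 120 per kilobase, whereas Hey2 (2.76) and Nrarp (2.2) were low. The ligands Jag1 (397, 451 and 346) and Dll1 (178, 306 and 197) were also expressed, and Dll1 was highest in replicate 2. The ligands Jag2 (36, 15 and 11) and Dll4 (0, 1 and 2) were low. Rbpj, the DNA-binding partner of the pathway, had 379, 389 and 421.

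Other receptors showed which signals control MuSCs had transcripts to receive. Of 50 receptor genes, 44 were members. Tgfbr3, the TGF-beta co-receptor betaglycan, led by signal with 3491, 3401 and 3431, with its highest library 1.03 times its lowest. Egfr had 1923, 1977 and 1633, Lrp6, a Wnt co-receptor, 1766, 1738 and 1730, and Esr1, estrogen receptor alpha, 1234, 1372 and 1278. Per kilobase, Esr1 had 94.8, above the median member. Il6st, the shared subunit of interleukin-6 family receptors, had 1114, 1341 and 1206.

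Of the myogenic factors, 19 of 21 were members, with a median of 56.6 per kilobase over these members. Tcf4, a partner of myogenic factors, had 1919, 1465 and 2024, or 65.8 per kilobase. Myod1, which drives commitment, had 93, 184 and 169, and Myog, which drives differentiation, had 137, 107 and 208. Myod1 was lowest in replicate 1 and Myog in replicate 2, and per kilobase Myod1 had 79.9 and Myog 100.8. Pax7 at 607 and Myf5 at 463 per kilobase stood above both. In the list of commitment and differentiation, 11 of 15 genes were members, close to the 75.9% of all protein-coding genes, and their median was 20.6 per kilobase. Des, the intermediate filament desmin, stood out with 1516, 1794 and 1309. The acetylcholine receptor subunit gene Chrna1 had 427, 438 and 421. Embryonic and neonatal myosin genes were low, with Myh3 at 16, 5 and 7 and Myh8 at 1, 0 and 2.

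Genes for the niche matrix and its receptors made up 2.25, 1.96 and 1.60% of the member signal in replicates 1, 2 and 3. Of 32 genes of this list 30 were members. Dag1 led by signal with 8850, 8365 and 6970, followed by the collagen IV chain Col4a1 with 5665, 4074 and 3078 and the laminin chain Lamc1 with 4596, 4487 and 3501. Hspg2, perlecan, had 4667, 4269 and 2922. Lama2, the laminin alpha2 chain of the muscle basal lamina, had 3860, 3178 and 3198. In all of these genes replicate 1 was the highest. Of 27 genes of the list with a mean of at least 50, 23 were highest in replicate 1 and 25 lowest in replicate 3. Of all 7360 genes at that level, 30.1% were highest in replicate 1 and 41.3% lowest in replicate 3. Of the fibroblast list, described further on, 11 of 16 genes were members, and their share in replicates 1, 2 and 3 was 0.580, 0.474 and 0.396%, with Col1a1 at 487, 128 and 81. The part of fibroblast RNA in the order of the libraries was not tested.

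The dystrophin complex links the cytoskeleton of a muscle cell to laminin. Next to Dag1, its members Dmd (2736, 2483 and 3358) and Utrn (2375, 2506 and 2185), dystrophin and its homolog utrophin, were well expressed. Per kilobase they were at 120 and 138. Of 14 genes 12 were members. Sgca, alpha-sarcoglycan, had 102, 106 and 104, whereas Sgcd with 1, 0 and 0 stayed under the limit of 3 reads.

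Immediate early genes are transcribed within a short time after a stimulus without the need for new protein. In control MuSCs 29 of 30 were members, and together they held 0.592% ± 0.0547 (SD, n = 3) of the member signal. Jun had 2358, 2943 and 2481, Egr1 2788, 2446 and 2026 and Fos 1951, 2632 and 2302. Per kilobase, Fos (976) and Jun (813) were above Pax7 (607), and Egr1 (540) was below it. Fosb, which also belongs to AP-1, had 628, 1218 and 669 and was highest in replicate 2. Junb had 578, 744 and 590, Jund 590, 658 and 482 and the nuclear receptor gene Nr4a1 542, 631 and 393. Of 22 genes of the list with a mean of at least 50, 14 were highest in replicate 2, against 41.8% of all genes at that level.

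Start sites of these genes are shown because some hold the letters of a TATA box, the element that sets the start of transcription. Promoters, 250 bases before to 50 after a start site, were taken from RefSeq (GRCm38.p6), in which 25 of the 30 genes had an entry. In 4 of the 25, 16%, the letters TATAAA stood on the sense strand from 45 to 15 bases before the start, as in 216 of all 13529 promoters, 1.60%. A match is a description of the letters and not of a bound site. The 4 sequences run 5′ to 3′ from 70 bases before to 30 bases after the start, with TATAAA in capitals. They lie at chr12:85473820-85473919 (plus strand) for Fos, chr12:80112984-80113083 (minus strand) for Zfp36l1, chr13:51846605-51846704 (plus strand) for Gadd45g and chr3:145649956-145650055 (minus strand) for Ccn1.
Fos: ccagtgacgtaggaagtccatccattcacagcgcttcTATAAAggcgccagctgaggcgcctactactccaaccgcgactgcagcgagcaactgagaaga
Zfp36l1: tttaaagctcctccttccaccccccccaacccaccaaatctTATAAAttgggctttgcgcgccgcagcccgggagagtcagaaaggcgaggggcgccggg
Gadd45g: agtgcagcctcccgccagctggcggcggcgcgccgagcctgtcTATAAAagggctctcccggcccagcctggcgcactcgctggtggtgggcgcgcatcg
Ccn1: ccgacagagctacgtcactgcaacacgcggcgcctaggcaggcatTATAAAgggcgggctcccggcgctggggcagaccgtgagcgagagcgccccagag

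The 4 genes differed in level. Zfp36l1, which encodes an RNA-binding protein, had a signal of 594, 530 and 522, Ccn1, a secreted matrix protein gene, 369, 329 and 258, and Gadd45g, a stress response gene, 34, 23 and 16. Per kilobase, Fos had 976, Zfp36l1 184 and Gadd45g 20.7.

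Heat shock genes encode chaperones that fold proteins and are induced by stress. Of 17 genes of the list 17 were members, with a median of 1050 and 12 of them at a mean of at least 500. Hsp90ab1 and Hspa8, which are active in most cells without stress, had 4561, 5043 and 5399 and 3927, 4875 and 4801. The stress-inducible pair Hspa1a and Hspa1b had 5321, 5096 and 3424 and 4768, 4868 and 3282. Both of the pair were lowest in replicate 3, in which Hsp90ab1 was highest. Hsph1 (3391, 3946 and 3142), Dnajb1 (994, 1264 and 893) and Bag3 (536, 617 and 434), also stress-inducible, were highest in replicate 2. Hspa1a and Hspa1b are near-identical neighbours on chromosome 17, so how reads were split between them is uncertain, and reads that aligned to both were excluded per the methods. Their sum was 10089, 9964 and 6706.

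The heat shock element is built of GAA units and their reverse complement. RefSeq promoters covered 13 of the 17 genes, under the 80% needed here, so a share for the list is void, and single promoters are shown. Printed are the 5 genes of the list whose entry held GAANNTTC, a motif that reads the same on both strands, before the start site. The entries of Hsph1, Bag3 and Hspb8 held it too, but not before the start, and are not printed. The stretches of 100 bases, 5′ to 3′, have the motif in capitals. They lie at chr17:34972201-34972300 (minus strand) for Hspa1a, chr17:34959283-34959382 (minus strand) for Hspa1b, chr4:40722304-40722403 (plus strand) for Dnaja1, chr1:55088024-55088123 (plus strand) for Hspe1 and chr5:135887762-135887861 (plus strand) for Hspb1. Of all 13529 promoters, 6.19% held GAANNTTC.
Hspa1a: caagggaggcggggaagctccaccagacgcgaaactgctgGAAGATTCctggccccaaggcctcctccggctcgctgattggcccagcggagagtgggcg
Hspa1b: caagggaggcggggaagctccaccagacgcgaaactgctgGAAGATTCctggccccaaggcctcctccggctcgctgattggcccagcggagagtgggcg
Dnaja1: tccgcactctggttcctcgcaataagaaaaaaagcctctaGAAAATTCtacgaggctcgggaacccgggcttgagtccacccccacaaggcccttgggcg
Hspe1: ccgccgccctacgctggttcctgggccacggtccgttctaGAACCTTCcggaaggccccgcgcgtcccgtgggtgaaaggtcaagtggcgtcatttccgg
Hspb1: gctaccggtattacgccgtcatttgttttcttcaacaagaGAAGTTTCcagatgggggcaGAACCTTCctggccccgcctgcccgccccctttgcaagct

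The stretches of Hspa1a and Hspa1b were the same base for base. Hspb1 held the motif in 2 places. Dnaja1 had a signal of 504, 544 and 615, Hspe1, a mitochondrial chaperonin, 149, 222 and 169 and Hspb1, a small heat shock protein, 129, 211 and 120. Per kilobase, Hspa1a had 1555, Hspb1 149, Hspe1 122 and Dnaja1 64.2.

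Cells at rest make protein at a low rate, yet transcripts of the translation machinery were among the highest per kilobase. Genes for cytosolic ribosomal proteins were taken by symbol, so the list also holds genes named after one, such as Rps19bp1 (17, 28 and 18). Of its 85 genes 83 were members, and they held 2.32, 2.56 and 3.15% of the member signal in replicates 1, 2 and 3. Their median over members was 545 by signal and 289 per kilobase. Rpl4 had 2923, 3050 and 3515, Rplp0 2184, 2716 and 2997 and Rpsa 2178, 2409 and 3013. Replicate 3 was the highest library for 65 of the 77 genes with a mean of at least 50, and replicate 1 the lowest for 62. Of all genes at that level, 28.0% were highest in replicate 3 and 33.9% lowest in replicate 1. The list of translation factors, which also holds Nap1l1 and Tpt1, had 18 genes at that level, and 13 of them were highest in replicate 3. Replicate 3 was also the library with the fewest reads, and the part of depth in this was not tested. Eef1a1 had 7477, 8364 and 10150. Ribosomal protein genes have many processed pseudogenes, and the pseudogene Rps3a3 had 182, 17 and 247, and these values are uncertain where reads are shared with such copies.

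Transcripts of ribosomal protein genes are known to begin with a terminal oligopyrimidine tract, a C followed by a run of C and T. Since RefSeq promoters covered 65 of the 85 genes, under 80%, no share is given. Shown are the 4 most abundant genes whose entry held a C followed by 5 or more pyrimidines between 5 bases before and 11 after the start, as 10.7% of all promoters did. They are printed from 20 bases before to 30 after it, 5′ to 3′, with the match in that window and the pyrimidines after it in capitals. Pyrimidines directly before the match, as in Rpl7a, are not marked. They lie at chr17:24720043-24720092 for Rps2, chr14:24490658-24490707 for Rps24, chr2:26910787-26910836 for Rpl7a and chr2:32961692-32961741 for Rpl12, each on the plus strand.
Rps2: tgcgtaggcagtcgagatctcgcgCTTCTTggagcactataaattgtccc
Rps24: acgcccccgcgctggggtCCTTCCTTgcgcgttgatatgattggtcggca
Rpl7a: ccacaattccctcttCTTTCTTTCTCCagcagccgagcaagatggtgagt
Rpl12: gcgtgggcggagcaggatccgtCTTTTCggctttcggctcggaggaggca

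Rps2 had a signal of 1129, 1506 and 1741, Rps24 1032, 1168 and 1416, Rpl7a 975, 1168 and 1251 and Rpl12 881, 994 and 1327. Each of the 4 was highest in replicate 3 and lowest in replicate 1.

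Of 85 nuclear genes for the respiratory chain 76 were members, with 0.398% ± 0.0239 (SD, n = 3) of the signal and a median of 76.2 over these members. The ATP synthase genes Atp5b (1192, 1571 and 1368) and Atp5a1 (1151, 1271 and 1190) were the highest of the list by signal and per kilobase, with 325 for Atp5b and 384 for Atp5a1. By signal Sdha, of complex II, came next with 380, 376 and 337, while per kilobase Cox8a (188) and Ndufa2 (150) lay above Sdha (88.3). Mitochondrially encoded genes were not analysed here. In glycolysis 22 of 24 genes were members, with Pkm at 1286, 1578 and 1176 and Aldoa at 1033, 1227 and 1070. Of the fatty acid oxidation genes 16 of 19 were members, led by Hadha at 422, 436 and 376 and the gate enzyme Cpt1a at 412, 330 and 473. Per kilobase, the medians over members were 39.5 for the respiratory chain, 36.8 for glycolysis and 20.8 for fatty acid oxidation. Over all protein-coding members the median was 17.2.

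Of 19 proliferation genes 15 were members, close to the 75.9% of all protein-coding genes. The median over these members was 36.7, or 6.69 per kilobase, against 75.5 and 17.2 over the protein-coding members. The summed signal of the list was 834, 549 and 787. Mki67, which marks cycling cells, had 289, 119 and 186, and Top2a 81, 39 and 61. Ccnb1 at 9, 8 and 18 and Cdk1 at 6, 6 and 9 stood at a few reads. Among cyclins and inhibitors, Ccnd1 (830, 860 and 749) and Ccnd3 (608, 575 and 509) were the highest by signal. The inhibitor Cdkn1b had 335, 372 and 362. Cdkn1c, an imprinted inhibitor, had 203, 153 and 488 and was highest in replicate 3 by over 2-fold, whereas Cdkn1a, which p53 induces, had 26, 14 and 25.

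Imprinted genes are expressed from the maternal or the paternal copy. Of 24 with a row, 23 were members, and their summed signal was 31702, 31853 and 33322, the highest 1.05 times the lowest. Peg3 and Gnas were followed by Rian (4395, 3828 and 4587) and Meg3 (2525, 1668 and 1834), noncoding RNAs of the Dlk1-Dio3 locus. Igf2r had 2616, 2728 and 2599. Plagl1 had 455, 287 and 174 and H19 301, 365 and 163, and both were lowest in replicate 3.

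The same locus showed in the smallest genes. Of 378 genes of the biotype miRNA 29 were members, and 14 of these lay within 164 kb of chromosome 12, between 109571990 and 109735700 on the plus strand, in a window that held 43 miRNA genes in all. Their means ran from 5 to 14.3, for example Mir1188 with 15, 12 and 16 and Mir127 with 14, 12 and 9. Mir341 and Mir1188 lie inside Rian on the same strand. Reads there can come from the longer transcript around a hairpin or from the hairpin, and mature miRNAs were not measured by these libraries. The mature forms are given to show which regulators the locus encodes, from RefSeq (GRCm38.p6), 5′ to 3′, with bases 2 to 8, the seed, in capitals. Mir758 and Mir1197 share the seed of their 5p form.
miR-758-5p: uGGUUGACcagagagcacacg
miR-1197-5p: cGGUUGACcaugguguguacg
miR-127-3p: uCGGAUCCgucugagcuuggcu
miR-433-3p: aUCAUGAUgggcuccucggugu
miR-1188-5p: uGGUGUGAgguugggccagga
miR-493-3p: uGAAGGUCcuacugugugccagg

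Mir758 had 10, 17 and 5 and Mir1197 1, 12 and 7, so single reads set their order between libraries. Outside the locus, Gm23935 (103, 52 and 54) and Mir7688 (73, 29 and 47) were the highest of the biotype.

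By class, protein-coding genes were 11640 of the 14144 members, 82.3%, and held 95.6% ± 0.627 (SD, n = 3) of the signal. Of the 15330 protein-coding genes of the table, 75.9% were members. Long noncoding RNA genes were 1653 members with 3.61, 2.90 and 3.82% of the signal, and without Malat1 2.26, 1.92 and 2.54%. The 1653 include 852 genes of the biotype TEC and 111 of the biotype sense intronic, whose limits are given below. These 2 biotypes held a mean of 0.816 and 0.0933% of the signal. Pseudogenes, 740 members, held 0.703% ± 0.0992, and small or structural RNA genes, 111 members, 0.300% ± 0.0533. In each of the 3 noncoding classes replicate 3 had the highest share and replicate 2 the lowest.

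Neat1, the RNA scaffold of paraspeckles, had 3139, 2706 and 3440, and Kcnq1ot1, an antisense RNA that silences neighbours, 1034, 739 and 1534. Airn, another imprinted antisense RNA, had 437, 416 and 421. Of 247 antisense members, 214 lie opposite a protein-coding member. Whether counting used the strand is not stated in the sources used here, so reads of such a pair cannot be told apart. TEC genes, transcripts to be experimentally checked in the annotation, were 852 members with a median signal of 13.7. Of these, 669, 78.5%, lie inside a protein-coding gene on the same strand, and in all 669 cases that gene was itself a member. For sense intronic RNAs it was 108 of 111. Total RNA holds unspliced transcripts, and reads of an intron of the surrounding gene cannot be told apart from a transcript of their own.

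Among processed pseudogenes, 604 of 2931 were members, led by Gm8696 with 461, 311 and 382 and Tpt1-ps3 with 181, 155 and 283. The parent Tpt1 had 2562, 2477 and 3230. Snord17 (102, 75 and 111) and Snora23 (93, 41 and 73) led 33 snoRNA members, and Gm22513 (213, 136 and 151) led 21 snRNA members. Peg13, an imprinted RNA within an intron, led the sense intronic class with 145, 174 and 129.

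Counts of members in further families are set against 75.9% of all protein-coding genes. Of 364 genes with a Zfp symbol 331 were members, with a median of 49.7 over these members against 75.5 over the protein-coding members. Of 30 Hox genes 21 were members, with Hoxa7 at 111, 120 and 115, Hoxc10 at 91, 99 and 118 and Hoxa10 at 80, 135 and 82. Clock genes were members in 17 of 18 cases, led by signal by Rora (899, 785 and 859), Clock (659, 684 and 642) and Nr1d1 (530, 517 and 570). Of 60 olfactory receptor genes 5 were members, and the highest, Olfr267, had 39, 27 and 47. Of 65 histone genes 40 were members, led by the replication-independent H3f3b with 660, 672 and 502, and the linker histone gene H1f0 had 459, 472 and 292. Of the 7 sirtuin genes, Sirt2 was the highest (354, 310 and 292) and Sirt6 the lowest by signal (18, 17 and 20). Per kilobase, Sirt6 (6.58) lay above Sirt3 (3.63) and below the other 5, of which Sirt7 (7.38) was the next. Of the Y chromosome genes, Ddx3y had 304, 302 and 303, and Xist, the RNA of the inactive X, had 2, 0 and 4.

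Transcripts typical of other cells were searched for with lists of their markers. Per the paper's reporting summary, sorted cells were analysed again and fell clearly short of full purity. The part of this in the sums below was not tested. In bulk libraries, fewer cells of a type and less RNA per cell cannot be told apart. Endothelial and immune markers were low. Endothelial markers summed to 36, 28 and 56 over 11 genes, of which Cdh5 had 1, 2 and 5 and Kdr 0, 3 and 4. Macrophage markers, 8 of 13 of which had a row, summed to 52, 42 and 69, and nearly all of it was Cd68 (46, 35 and 61), a lysosomal gene that other cells also express. Csf1r, a defining macrophage receptor, had 1, 0 and 0, and Fcgr1 was at 0 in each library. Rows were present for 4 of 10 lymphocyte, 3 of 8 neutrophil, 2 of 8 pan leukocyte and 5 of 7 adipocyte markers, and the others were not analysed here. Each of these lists summed to 25 or less in every library, with Ngp at 0 in each. The list of organs unrelated to muscle, with a row for 5 of 15 genes, summed to 16, 2 and 17, with Cela2a at 0 in each library.

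**Figure D3:**
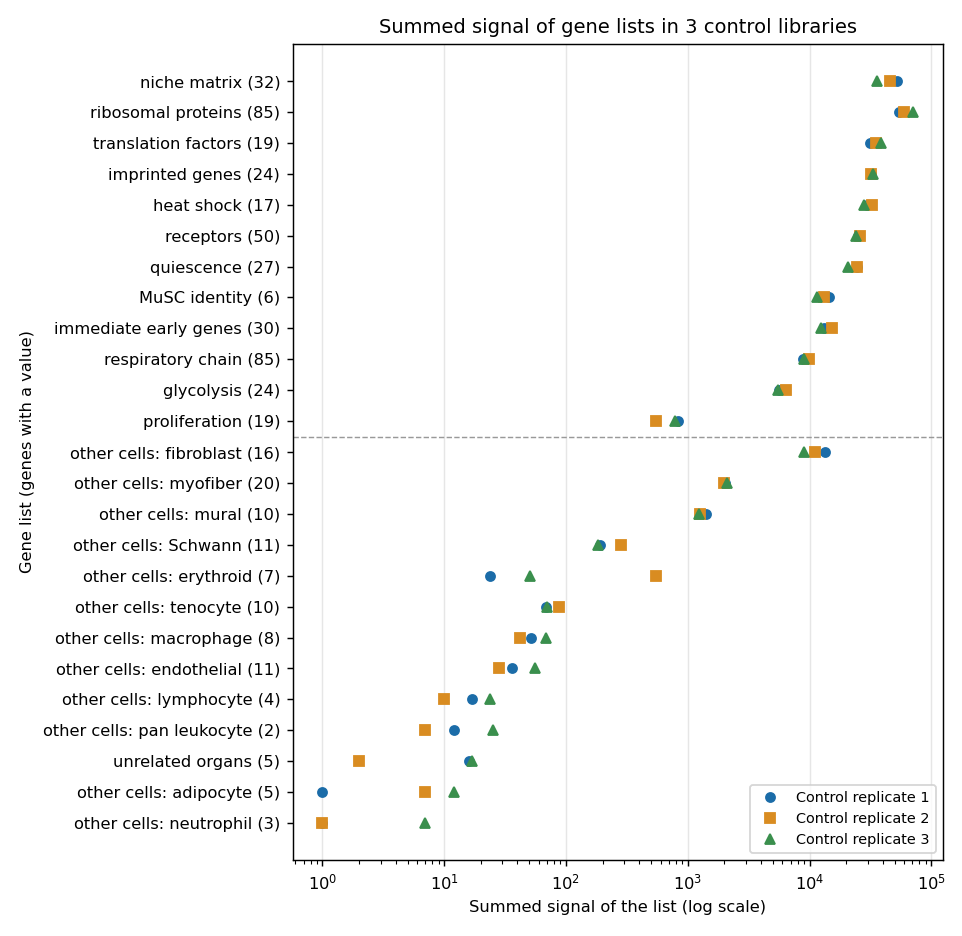
Summed signal of gene lists (x axis, log scale) in the 3 control libraries, each library with its own symbol, with the number of genes with a value beside each list. Lists of the cells' own functions stand above the dashed line and markers of other cells below it. The endothelial list lies between 28 and 56 and the MuSC identity list between 11483 and 14382, while the fibroblast list reaches 8930 to 13465.

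Red blood cell genes set 1 library apart. They summed to 24, 549 and 51. Of the alpha-globin genes, Hba-a1 had 14, 242 and 36 and Hba-a2 7, 139 and 9. Of the others, Hbb-bs had 1, 89 and 0 and Alas2, the first enzyme of heme synthesis in red cells, 0, 44 and 2. Control replicate 2 was the highest for this list, and the sum was 0.167, 4.14 and 0.444% of the MuSC identity sum in replicates 1, 2 and 3. The part of red cell RNA in other differences of replicate 2 was not tested.

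Fibroblast markers split into high and low genes. Col3a1 had 8595, 7237 and 5795, Gsn, gelsolin, 3170, 2785 and 2312, and Dpt, dermatopontin, 866, 755 and 572. Without these 3 genes the other 13 summed to 834, 277 and 251. The receptor gene Pdgfra, which defines fibro-adipogenic cells of muscle, had 9, 4 and 2, Lum had 11, 3 and 2 and Pi16 2, 2 and 4. Col1a1 (487, 128 and 81), Col1a2 (173, 63 and 65) and Dcn (77, 26 and 34) were highest in replicate 1. Tenocyte markers summed to 68, 88 and 70, with Tnmd at 1, 0 and 0.

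Myofiber markers had even sums of 2019, 2002 and 2097, or 0.0883% ± 0.00394 (SD, n = 3) of the signal for the 18 members of 20. These sums were 14.0, 15.1 and 18.3% of the MuSC identity sum in replicates 1, 2 and 3. Single genes were less even, and Neb differed 1.79-fold between libraries. Ttn, titin, had 451, 321 and 518, which over its very long transcript was 3.68 per kilobase. Neb, nebulin, had 298, 168 and 301, Actn3 326, 534 and 330 and Atp2a1, the calcium pump of fast fibers, 269, 354 and 357. Acta1, skeletal actin, had 118, 131 and 93, and Ckm, creatine kinase, which is among the main transcripts of a fiber, 31, 31 and 23. Per kilobase, Actn3 (137), Atp2a1 (94.0), Acta1 (74.2) and Tnnt3 (33.1) lay above 17.2, the median of the protein-coding members. All other genes of the myofiber list lay under it. Mural cell markers summed to 1421, 1261 and 1237. Acta2 (467, 456 and 590), Tagln (278, 206 and 244), Mylk (279, 235 and 149) and Vtn (271, 238 and 136) were the highest of the list by signal. Rgs5 (9, 31 and 34), Pdgfrb (11, 20 and 14) and Myh11 (11, 9 and 5) were low. Schwann cell markers summed to 192, 281 and 184, with Sox10 at 2, 1 and 2.

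The spread between libraries was compared with counting error. The median coefficient of variation over the 3 libraries was 17.6% over the members. It was 40.6% for genes with a mean from 5 to 10, where counting of the recovered reads implies a true spread of 43.3%. For a mean from 10 to 50 it was 25.3% against 23.3%. For a mean from 1000 to 5000 it was 10.3%, against a counting error of 2.99%. The measured spread of 3 values lies, in the median, under the true spread, and the counting error was not lowered in that way. Whether low genes varied more than counting gives is therefore not settled by these values. Abundant genes varied more than counting gives.

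**Figure D4:**
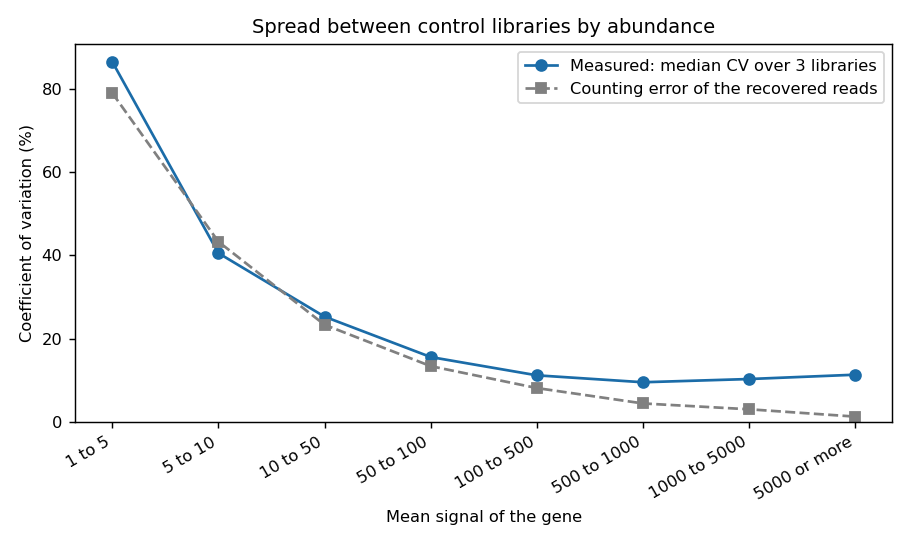
Median coefficient of variation over the 3 control libraries (y axis, percent) by mean signal of the gene (x axis, classes), with the measured values as a solid blue line and the counting error of the recovered reads as a dashed grey line. The lines lie near each other up to a mean of 50 and part above it, to 10.3% against 2.99% for a mean from 1000 to 5000. The median spread measured over 3 libraries tends to lie under the true spread, so nearness of the lines is not equality.

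Among 4991 genes with a mean of at least 100, the highest library was a median of 1.23 times the lowest, and 91 genes, 1.82%, exceeded 2 times. These 91 were highest in replicate 1 in 44 cases, in replicate 2 in 31 and in replicate 3 in 16. The largest ratio was that of the pseudogene Rps3a3 (182, 17 and 247). It was followed by Scn7a, a sodium channel gene (264, 39 and 73), Ryr3, a calcium release channel (127, 833 and 529), and Mylk2, the myosin light chain kinase of skeletal muscle (541, 182 and 84). Col1a1, D630003M21Rik (373, 133 and 68), Col6a6 (182, 83 and 43), Hmgcs1 (258, 492 and 131), Nid1, a basement membrane linker (679, 227 and 183), and Stard4 (93, 168 and 47) completed the first 10. Of these, Scn7a, Mylk2, Col1a1, D630003M21Rik, Col6a6 and Nid1 were highest in replicate 1, Ryr3, Hmgcs1 and Stard4 in replicate 2. Igfbp5, at rank 11 by level, had 8706, 5800 and 2739 and so differed 3.18-fold between replicates 1 and 3.

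**Figure D5:**
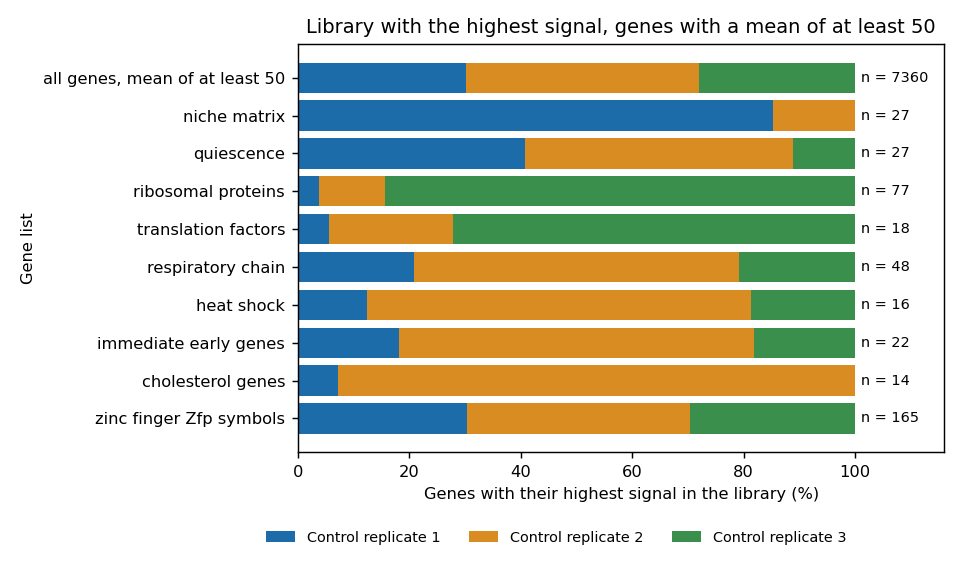
For gene lists and for all 7360 genes with a mean of at least 50, the share of genes (x axis, percent) that had their highest signal in control replicate 1 (blue), 2 (orange) or 3 (green), with the number of genes beside each bar. Of 27 niche matrix genes 23 were highest in replicate 1, of 77 ribosomal protein genes 65 in replicate 3, and of 14 cholesterol genes 13 in replicate 2.

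Hmgcs1 and Stard4 led to a further group, chosen after their values were seen and therefore not independent of them. Of 24 genes of sterol synthesis and uptake all were members, and 14 had a mean of at least 50. Of these 14, 13 were highest in replicate 2 and 14 lowest in replicate 3, against 41.8% and 41.3% of all genes at that level. The sum was 4391, 6041 and 2983. Srebf2, the transcription factor of sterol synthesis, had 723, 914 and 588, and Cyp51, an enzyme of the pathway, 151, 225 and 72. Of 165 genes with a Zfp symbol at that level, 50, 66 and 49 were highest in replicates 1, 2 and 3.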

How the data were processed

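RNA-seq of freshly isolated MuSCs was read from 1 deposited table, of which only the 3 control columns were used. The authors deposited signal values, that is, whole-number reads per gene divided by a size factor per library. The unit is not named in the table and was inferred from the values: the steps between low values gave factors of 0.813, 1.37 and 0.558, and 99.6 to 100% of low values were reachable with whole reads. A search for 10 known factors in simulated data erred by at most 0.133%. Per the labels, ribosomal RNA was depleted and libraries were made with a SMARTer kit and read as 75 bp single ends, whereas the methods name another depletion and kit. The submitters' processing notes name Trimmomatic 0.39, STAR 2.7.10a, Picard 2.25.5, featureCounts 2.0.2 and DESeq2 1.30.1. Per the methods, reads on more than 1 gene or place were excluded, which lowers genes with copies or overlaps.

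Of 25166 gene IDs, 99.7% were found in GENCODE release M21 (GRCm38), from which biotypes, positions and the merged exon length came. Ranks and list leaders by signal order genes by reads and favour long ones, and levels per kilobase of that length are given where an order of molecules matters. Genes of a list without a row in the table were not analysed here. Some further genes of the lists are not reported here. No group comparison and no test was made, and all values are descriptions of 3 libraries. The 30 most abundant genes, the first 10 per kilobase, the 4 most abundant of each list, the 3 of each biotype, the 10 with the largest ratio between libraries, the markers and sort antigens, and the 2 genes on each side of the threshold were named by rule. Other genes, and the cholesterol list, were chosen after their values were seen. The members and lists were chosen with earlier results of these data known. Values were computed with Python 3.11.15, numpy 2.4.6 and pandas 2.3.3, and figures with matplotlib 3.10.9. Alternatives were leaving out each library, equal totals, other minimums, exon length, and leaving out the 10 most abundant genes.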

Additional observations from a re-analysis of the deposited data

How the results depend on the processing

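Of 76 alternative values for 11 results, 59 moved by less than the spread between libraries or, for counts, stayed within 1.5 times. Dividing by exon length moved the share of the 100 most abundant genes to 19.8%, of protein-coding genes to 85.8%, of long noncoding RNA genes to 4.49%, of ribosomal proteins to 7.24%, of the respiratory chain to 0.914%, of immediate early genes to 0.924% and of myofiber markers to 0.095%. Without the 10 most abundant genes in the total, protein-coding genes held 96.6%, long noncoding RNA genes 2.36%, myofiber markers 0.0931% and fibroblast markers 0.180%, since Malat1 and Col3a1 are among the 10. A minimum mean of 50 left 7360 genes. The median spread of 17.6% became 12.2% at that minimum and 12.9 to 15.7% without 1 library, where 2 values are compared in place of 3. As an SD of log2(signal + 1) it was 0.25. Leaving out 1 library gave 13993 to 14367 genes. Genes under a mean of about 10 rest on few reads in replicate 3, the shallowest library. No paired analysis was possible because the results come from no test.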
